A study of Mus musculus with 4 samples.

Results

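The cytosolic ribosomal protein genes were followed in RNA-seq libraries of embryonic mouse cortex carrying floxed alleles of Upf2, a gene whose protein links the factors of nonsense-mediated decay of mRNA (NMD). Members were chosen by name alone: Rpl or Rps with a number and at most a final a or x, together with Rplp0, Rplp2 and Rpsa. This gave 74 of the 40630 genes in the deposited table, 44 of the large and 30 of the small ribosomal subunit, spread over 19 chromosomes. Rplp1 and Rpl36 are not analysed here. The 4 libraries came from C57BL/6 cortex at E13.5. The group called cKO-labelled held 2 libraries (replicates 4 and 5) of Upf2fl/fl embryos with Emx1-Cre, and the control group held 2 libraries (replicates 8 and 9) of Upf2fl/+ littermates without Cre. All embryos carried a floxed Upf2 allele, and the groups differed in Cre and in the dose of floxed alleles at once. Emx1-Cre acts in progenitors of the dorsal telencephalon and their descendants, so blood, vessels, meninges and ventrally born interneurons in the tissue are not its target. Whether the libraries stem from separate embryos is not stated, and p-values then measure only the spread between these libraries.

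Ribosomal proteins join the ribosomal RNAs to form the small subunit, which reads the mRNA, and the large subunit, which joins amino acids. Their mRNAs are among the most abundant of growing cells such as cortical progenitors. Many begin with a cytosine followed by a run of pyrimidines, the 5′ terminal oligopyrimidine (TOP) tract, through which mTORC1 and LARP1 set their translation. Some of the genes limit their own output by splicing to a form with a premature stop codon, which NMD removes, and many carry snoRNA genes in their introns.

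The start of the transcript is shown first because the TOP tract is the regulatory sequence that these genes are known for. RefSeq starts (GRCm38.p6) were found for 56 of the 74 members, and the other 18 had no entry in the table used. The pattern searched was C as the first transcribed base followed by at least 4 bases that are each C or T, on the transcript strand only. A start with this pattern was annotated for 13 of the 56 members (23.2%), against 813 of 27025 genes (3.01%) in the same table. The windows below hold 20 bases before the annotated start and 10 bases from it, with the tract in capitals as far as the window reaches. They lie at chr4:86857358-86857387 (minus strand) for Rps6, the small subunit protein that S6 kinases phosphorylate, chr11:114668560-114668589 (plus) for Rpl38, chr7:141447631-141447660 (plus) for the stalk gene Rplp2, chr17:27635235-27635264 (minus) for Rps10 and chr2:39005122-39005151 (minus) for Rpl35.
Rps6: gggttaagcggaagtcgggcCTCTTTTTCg
Rpl38: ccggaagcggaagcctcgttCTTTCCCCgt
Rplp2: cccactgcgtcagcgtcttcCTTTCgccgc
Rps10: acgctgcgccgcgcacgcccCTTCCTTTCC
Rpl35: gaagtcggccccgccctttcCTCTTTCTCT
The starts are annotated positions and were not measured in these libraries, and a missing match says only that these letters are not at the annotated start. The median log2 fold change was -0.12 for the 13 members with the tract and -0.26 for the members with a start but no tract.

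Upf2 itself (chromosome 2, 5951469 to 6056703 in GRCm38) stood at 27.8 and 42.2 TPM in cKO-labelled replicates 4 and 5 against 23.7 and 41.3 TPM in control replicates 8 and 9 (TPM, a share of transcripts that corrects for gene length; values stand in this order throughout). It was therefore not lower as a whole gene, which does not check the loss of a floxed segment. The recovered depth was 33537843 to 41680052 reads per library, and the members took 5.90% to 7.06% of them. All 12 cortical markers were detected, with a summed level of 2011 to 2231 TPM, and 1 of them (Emx2) was called lower. Markers of neighbouring tissues moved with the groups. The 10 ganglionic eminence markers summed to 559 and 257 TPM against 34.5 and 142, and all were called higher (1 of 10 without cKO-labelled replicate 4). The 10 hem and choroid plexus markers summed to 5.12 and 7.92 against 257 and 305 TPM, with Kcne2 at 0 in cKO-labelled replicate 4, and the 8 meningeal markers to 7.85 and 3.63 against 446 and 247 TPM, all called lower. Of 8 microglia and macrophage markers 2 were lower (summed 79.9 and 110 against 228 and 95.3 TPM), of 6 endothelial markers 1 was lower (89.0 and 74.6 against 129 and 85.9), and none of 8 red blood cell markers was called (17576 and 7754 against 18165 and 9507). Their part in the values of the ribosomal protein genes was not tested, and in such bulk tissue fewer cells of a type and less RNA per cell cannot be told apart.

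The ribosomal protein genes were among the most abundant transcripts of the cortex in every library. The median member had a mean of 1303 TPM, against 17.3 TPM for the median of all genes tested, and 43 of the 100 most abundant genes were members. The leading gene was Rps15, which encodes a protein of the small subunit head, with 7016 and 7229 TPM against 8538 and 5639 TPM. Rplp0, the base of the large subunit stalk that recruits elongation factors, had 5151 and 5319 TPM against 7421 and 4243 TPM. In both genes the controls bracketed the cKO-labelled libraries.
Next in level were Rps29, a zinc-binding protein of the small subunit head, with 4547 and 5145 against 5194 and 3458 TPM. Rps14, the gene whose loss on one chromosome causes the anaemia of human 5q- syndrome, had 4528 and 4831 against 4833 and 1928 TPM. Rpl8, whose protein lies near the peptidyl transferase centre, had 4251 and 3995 against 4783 and 2906 TPM. Each of these 3 genes was lowest in control replicate 9, while control replicate 8 lay close to the cKO-labelled pair or above it.

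**Figure D1:**
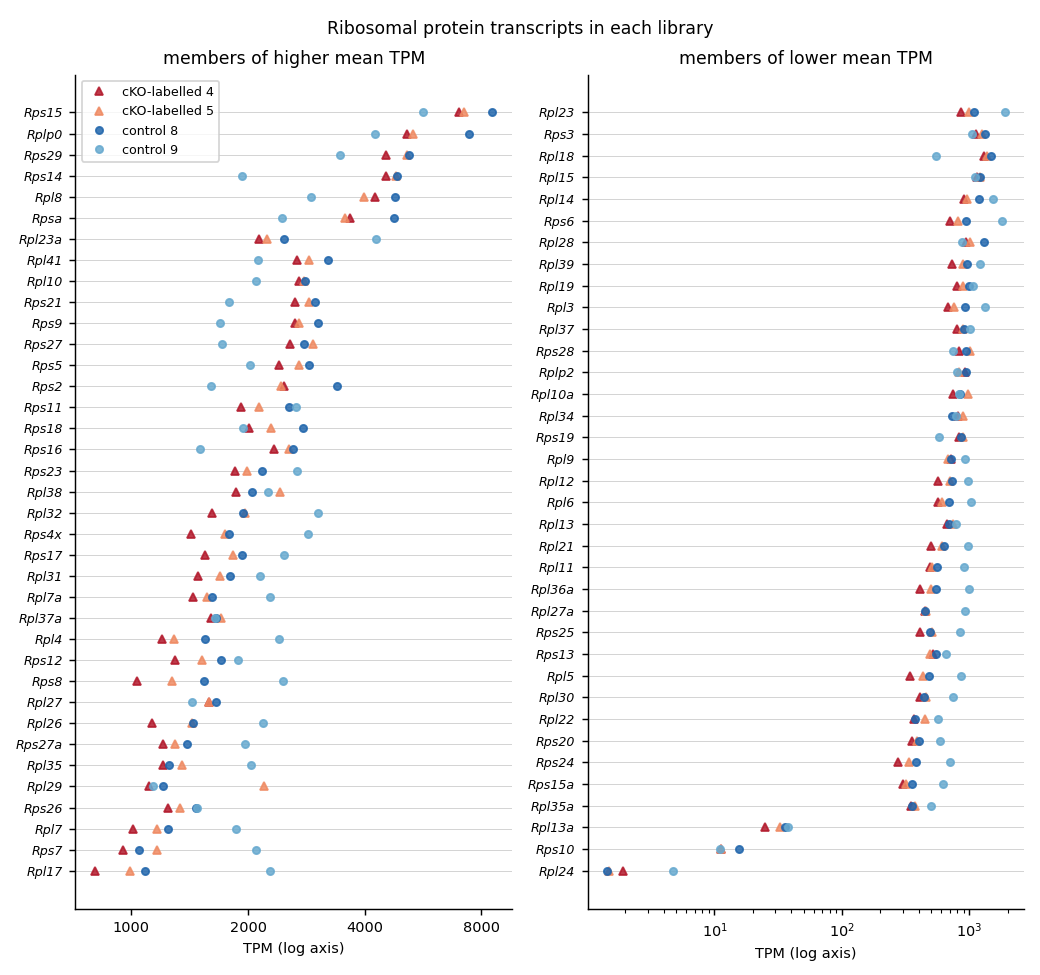
Level of 73 of the 74 genes in each of the 4 libraries, in TPM on a log axis, with genes ordered by mean level and split over 2 panels, and no error bars because every library is drawn. Of the 74 genes 71 have a mean of at least 100 TPM, control replicate 9 is often the point farthest from the rest, and Rpl13a, Rps10 and Rpl24 lie far below.

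A mean of at least 100 TPM was reached by 71 members, and the remaining 3 stood far below. Rpl24, a large subunit protein that takes part in joining the subunits, had 1.91 and 1.50 TPM against 1.45 and 4.73 TPM, from 20, 17, 19 and 54 recovered reads. Rps10, a protein near the mRNA entry, had 11.2 and 11.3 against 15.7 and 11.0 TPM. Rpl13a, which is released from the ribosome in the interferon response of human monocytes, had 25.1 and 32.4 against 35.7 and 37.5 TPM.
All 3 share exons on the same strand with another annotated gene that is listed at 0 in every library. Rpl24 shares 484 bases (47.0% of its exons) with Gm28037, Rpl13a shares 621 bases (29.4%) with Gm45713 and Rps10 shares 475 bases (20.6%) with RPS10-NUDT3. The only other member that shares exons with a gene of the same strand is Rpl19, with 36 bases (3.5%) in common with Gm11629, for which no value was used here. How the counting treated reads in shared exons is not given in the sources used here, and its part in these low values was not tested. The next gene in level was Rpl35a, with 348 and 372 against 352 and 496 TPM. Reads shared with near-identical pseudogenes are a further limit, and the 116 rows named as pseudogenes of members held 0.0934% to 0.131% of the TPM.

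The comparison asked whether these mRNAs differ between Upf2 cKO and control cortex. None of the 74 genes, all of which were tested, passed the threshold in either direction (limma on log2(TPM + 1), Benjamini-Hochberg adjusted p under 0.05 over 15107 genes), against 8.14% of all tested genes (2.9% called higher and 5.24% called lower). At an unadjusted p under 0.05 there were 4 members (5.41%) against 22.8% of all genes. The log2 fold changes, cKO-labelled minus control, ran from -0.81 (Rpl17) to 0.62 (Rps14), with a median of -0.27 beside -0.16 for all tested genes, and 49 were negative (66.2%, against 59.3% of all tested genes). No member changed by more than 1 on the log2 scale, a size that 9.01% of all tested genes exceeded. The standard errors were 0.35 to 0.48, and they are values of a trend pooled over genes rather than of a gene's own replicates. The 95% intervals lay within -1 to 1 for 24 members and reached past -1 for 38 and past 1 for 12, so missing the threshold does not show that the levels were alike.

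**Figure D2:**
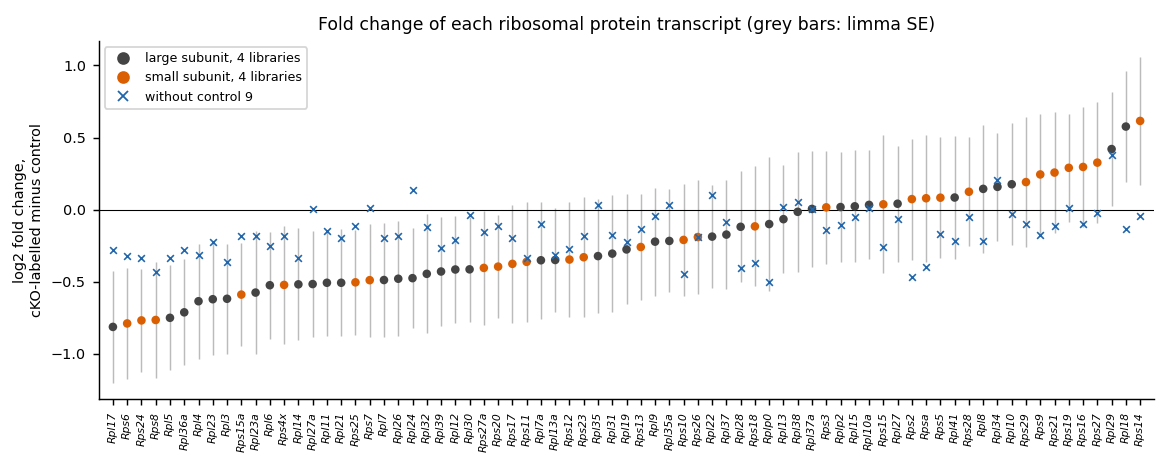
Log2 fold change of 73 of the 74 genes, cKO-labelled minus control on the log2(TPM + 1) scale, in order of size, with bars of 1 standard error from limma and crosses for the value without control replicate 9. The values run from -0.81 to 0.62 with all libraries, and the crosses gather in the narrower range from -0.50 to 0.38.

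The 4 genes with an unadjusted p under 0.05 were all lower in the cKO-labelled libraries, and of these Rpl17 and Rps24 are described because of their values. Rpl17, at the exit of the peptide tunnel, had 807 and 991 TPM against 1084 and 2279 TPM (-0.81 ± 0.39 (SE), limma adjusted p = 0.189). Rps24, which is mutated in Diamond-Blackfan anaemia in humans, had 273 and 337 against 383 and 701 TPM (-0.77 ± 0.36 (SE), limma adjusted p = 0.173, the smallest of any member).
Rps6 had 705 and 814 against 945 and 1813 TPM (-0.79 ± 0.38 (SE), limma adjusted p = 0.195). Rpl5 had 344 and 433 against 486 and 867 TPM (-0.75 ± 0.36 (SE), limma adjusted p = 0.194). In all 4 genes the groups did not overlap, and control replicate 9 stood far above the other control. Without control replicate 9 the fold changes of Rpl17, Rps24, Rps6 and Rpl5 were -0.28, -0.33, -0.32 and -0.33, and without control replicate 8 they were -1.35, -1.20, -1.26 and -1.17.

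Levels were separate between the groups for 34 of the 74 genes (45.9%), against 57.6% of all tested genes. The cKO-labelled libraries were both lower in 33 (44.6%, against 34.1%) and both higher in 1 (1.35%, against 23.5%). That gene was Rpl34, a large subunit protein named because it was the only one, with 813 and 884 against 735 and 786 TPM (0.16). The libraries of each group also differed from each other. The cKO-labelled replicate 4 was the lowest library for 45 members (60.8%, against 39.4% of all tested genes) and the highest for none (against 19.6%), and replicate 5 was above replicate 4 for 66 of 74. Control replicate 9 was the highest library for 44 members (59.5%, against 48.2%) and the lowest for 25 (33.8%, against 30.9%), so it lay outside the other 3 libraries for 69 members (79.1% of all tested genes did so).

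Over both cKO-labelled libraries and control replicate 8, a choice made after seeing the data, 71 of 74 members (95.9%) stayed within a range of 0.5 on the log2 scale. Of all tested genes 60.6% did so, but these are mostly far less abundant (median 17.3 TPM against 1303 TPM), and genes of like level were not compared. The median range over these 3 libraries was 0.28, beside 0.41 for all tested genes, and over all 4 libraries, where it can only be larger, it was 0.74 beside 0.85. The members tended to lie to one side between these libraries: 71 of 74 were higher in control replicate 8 than in cKO-labelled replicate 4, and 55 of 74 were higher than in replicate 5. This was also so within the cKO-labelled group, where 66 of 74 were higher in replicate 5 than in replicate 4. Across the 74 genes, the difference of control replicate 8 from cKO-labelled replicate 4 had a median of 0.22 and an SD of 0.16, where all tested genes had a median of 0.09 and an SD of 0.64. From cKO-labelled replicate 5 it had a median of 0.09 and an SD of 0.19, beside 0.00 and 0.58 for all tested genes. Between the cKO-labelled libraries the median was 0.13 and the SD 0.16, beside 0.08 and 0.34 for all tested genes. Between the 2 controls the SD was 0.65, beside 0.61, and the values ran from -1.42 (Rpl18) to 1.23 (Rpl24), with 46 members higher in control replicate 9 and 28 lower.
The difference between the controls followed GC content. GC content was taken over all annotated transcripts of a gene. Over the 74 genes the Spearman correlation of the control difference with it was -0.61 (-0.78 over all genes with a length). The differences of cKO-labelled replicate 5 and of control replicate 8 from cKO-labelled replicate 4 had -0.08 and 0.02 (-0.33 and -0.27 over all genes). These are descriptions across genes that share their libraries, with no test. The 25 members of lowest GC content (median 47.4%) had a median of 0.62 for control replicate 9 minus 8, the 25 in the middle (51.9%) had 0.11 and the 24 of highest GC content (55.2%) had -0.54. The fold change between the groups, from which the controls are subtracted, ran the opposite way, with medians of -0.48, -0.28 and 0.04 and with 23, 15 and 11 negative values. Its correlation with GC content was 0.54 (0.55 over all genes), with -0.02 when control replicate 9 was left out (0.20 over all genes) and 0.59 when replicate 8 was (0.69). Rpl18, named for the largest difference between the controls, shows the pattern at high GC content (55.8%). It had 1309 and 1379 against 1475 and 550 TPM, a fold change of 0.58 that was -0.14 without control replicate 9. Not every member of high GC content followed it, and Rpl35 (58.2%) had 1206 and 1353 against 1250 and 2041 TPM.

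**Figure D3:**
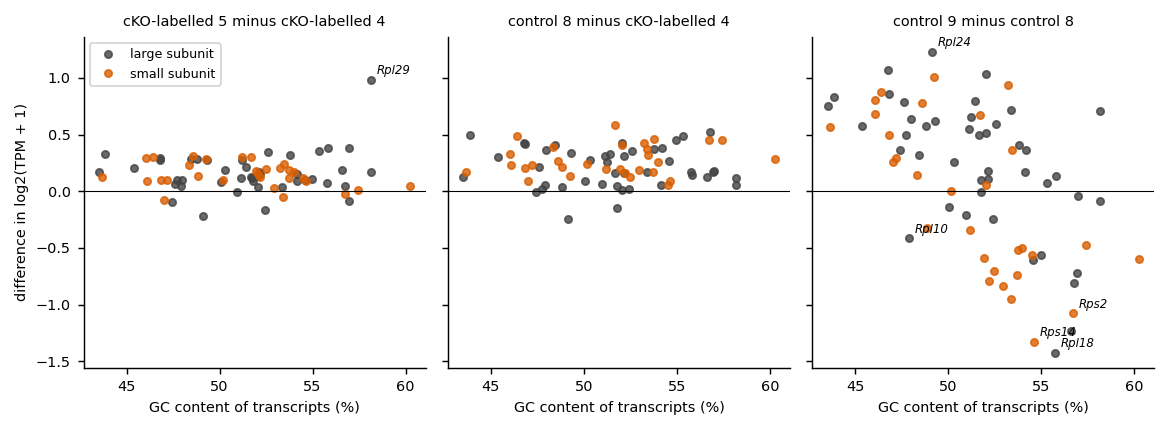
Log2 difference between pairs of libraries (vertical) against the GC content of the transcripts in percent (horizontal), 1 point per gene for the 74 genes, with 1 panel per pair. The points lie in a flat band for cKO-labelled replicate 5 and control replicate 8 against cKO-labelled replicate 4, and slope down for control replicate 9 against 8 (Spearman correlation -0.61).

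Without control replicate 9 no member was called (5.86% of all genes were), and 61 of 74 fold changes were negative (82.4%, against 55.4% of all genes), with a median of -0.17 beside -0.05. In that fit 28 members took the opposite sign from the fit of all libraries, and the share of all tested genes that did so was not counted. Without control replicate 8, where control replicate 9 alone stands for the control group and is assumed to vary like the cKO-labelled pair, 38 members were called, 7 higher and 31 lower (51.4%, against 48.8% of all genes, 18.7% higher and 30.1% lower). After removal of the GC trend from each library, an alternative chosen after seeing the data, none was called (10.1% of all genes were) and 50 fold changes were negative (67.6%, against 51% of all genes), with a median of -0.20 beside -0.01. With both that trend removed and control replicate 8 left out, 17 were called (23.0%, against 16.6% of all genes).

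**Figure D4:**
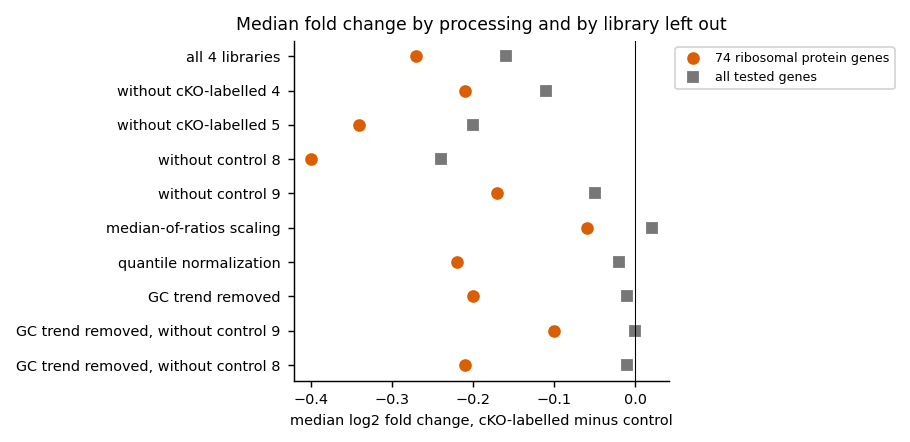
Median log2 fold change of the 74 genes and of all tested genes, cKO-labelled minus control, under each choice of libraries, scaling or GC correction. The members' median is below that of all genes under each choice drawn, at -0.27 against -0.16 with all libraries and at -0.06 against 0.02 after median-of-ratios scaling.

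As a share of the library, the 74 genes together made up 10.91% and 12% of TPM in cKO-labelled replicates 4 and 5, against 12.95% and 11.97% in controls. The means were 11.5% ± 0.769 and 12.5% ± 0.689 (SD, n = 2 each), and the groups overlapped by a narrow margin, with a two-sided exact permutation p of 0.667, where 2 against 2 libraries cannot go below 0.333. Median-of-ratios scaling leaves these shares as they are, but it rescales the summed level of each library. On that rescaled level, which is no longer a share, the cKO-labelled mean was the higher one by 0.597 (12.16 and 12.2 against 12.92 and 10.25). The large subunit genes held 5.45% and 6.05% against 6.39% and 6.58%, without overlap (exact permutation p = 0.333). The small subunit genes held 5.47% and 5.96% against 6.56% and 5.39%, with overlap (exact permutation p = 1).
The median fold change was -0.31 for the 44 large subunit genes, of which 32 were negative, and -0.20 for the 30 small subunit genes, of which 17 were negative. Without control replicate 9 these medians were -0.14 and -0.18. The difference between the subunits was not tested.

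By role, the 8 listed genes of proteins along the tunnel of the nascent peptide and around its exit (Rpl4, Rpl17, Rpl19, Rpl23a, Rpl26, Rpl31, Rpl35 and Rpl39) all had negative fold changes. They had a median fold change of -0.45, with 7 not overlapping between the groups, and none was called. Over all members 66.2% were negative and 45.9% did not overlap, and over all tested genes 59.3% and 57.6%. Without control replicate 9 the median was -0.20 with 7 of 8 negative, where 82.4% of all members were. The list as drawn up also held Rpl24, whose protein lies at the subunit interface, and with it the 9 genes had a median of -0.48 (-0.18 without control replicate 9) and a median GC content of 49.1%, below the 51.9% of all members. Rpl5 and Rpl11 form a particle with the 5S rRNA, which also binds Mdm2 when ribosome assembly is impaired. Rpl11 had 494 and 507 against 556 and 912 TPM (-0.51), without overlap, and it was at -0.15 without control replicate 9.
In the stalk, which draws elongation factors to the ribosome, 3 of the 4 genes were analysed. Besides Rplp0, Rplp2 had 929 and 827 against 944 and 794 TPM (0.02), and Rpl12, at the base of the stalk, had 567 and 707 against 733 and 972 TPM (-0.42). Rplp0 and Rplp2 overlapped between the groups and Rpl12 did not. Rplp0 was at -0.50 without control replicate 9, the most negative member of that fit, and at 0.30 without control replicate 8. The list of the mRNA channel and decoding region (Rps2, Rps3 and Rps23, with Rps12 of the small subunit head) had a median of -0.16 over its 4 genes, with 2 negative and none called.

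Genes known to be limited by NMD were of interest in a Upf2 mutant. Rpl3 and Rps9 in human cells and Rpl10a and Rpl12 in nematodes make splice forms that NMD degrades, and gene-level TPM does not separate such forms from the coding mRNA. None of these 4 genes was called, and their median was -0.19 with 2 negative. Rpl3, a protein near the peptidyl transferase centre, had 685 and 751 against 922 and 1316 TPM (-0.62), without overlap. Rps9, which bears on decoding accuracy in yeast, had 2650 and 2710 against 3024 and 1693 TPM (0.24), and it was at -0.17 without control replicate 9. Rpl10a had 747 and 976 against 847 and 823 TPM (0.03), with the 2 cKO-labelled libraries on either side of the controls.

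Of 7 genes whose mouse mutants have developmental phenotypes none was called. Rpl38, mutated in the Tail-short mouse with skeletal defects, had 1860 and 2425 against 2050 and 2247 TPM and was near 0 in the fold change (-0.02). Rps7, whose mutants have skeletal and eye defects, had 954 and 1165 against 1045 and 2095 TPM (-0.49), and it was at 0.01 without control replicate 9. Rpl27a, mutated in the sooty foot ataxia mouse, had 447 and 458 against 452 and 927 TPM (-0.52), and it was at 0.00 without control replicate 9.
Rpl24, mutated in the Belly spot and tail mouse, stands with the low genes above. Rps19 and Rps20, which are mutated in dark skin mice, had 828 and 899 against 858 and 580 TPM (0.29) and 354 and 385 against 399 and 591 TPM (-0.40). Rpsa, mutated in human isolated asplenia, had 3666 and 3550 against 4752 and 2454 TPM (0.08). The median of the 7 was -0.39 and without control replicate 9 it was 0.01. The 19 genes linked to Diamond-Blackfan anaemia, a human failure of red cell formation, had a median of -0.22 with 12 negative and none called. Rpl10, which joins the large subunit late in its assembly and is mutated in human neurodevelopmental disease, had 2700 and 2786 against 2800 and 2103 TPM (0.18), and it was at -0.03 without control replicate 9.

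Rpl29 stood out within the cKO-labelled pair. It encodes a small large-subunit protein without which mice live but stay small. It had 1112 TPM in cKO-labelled replicate 4 and 2201 TPM in replicate 5, against 1204 and 1135 TPM in controls, from 12760, 27347, 17310 and 14170 recovered reads. The log2 difference between the cKO-labelled libraries was 0.98, the largest of any member, and the next was Rpl10a at 0.39. As a share of the TPM of all 74 genes Rpl29 held 1.02% and 1.83% against 0.930% and 0.948%. Its fold change was 0.42 ± 0.40 (SE, limma adjusted p = 0.522), 0.91 without cKO-labelled replicate 4 and -0.07 without replicate 5, and over 15 alternatives its adjusted p ranged from 0.308 to 1.
Within their start and end, on the same strand, 29 members held 56 annotated snoRNA genes, and a position in an intron was not checked. These members had a median fold change of -0.39 with 22 negative, and the 45 without one had -0.19 with 27 negative. Without control replicate 9 the medians were -0.20 and -0.15.

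The other genes of the ribosome and its control are given by lists of names. Over all tested genes 2.9% were called higher and 5.24% lower. The few calls in these lists are therefore given for the genes named and not as results about their lists. Of the ribosomal proteins outside the naming rule, Fau had 3944 and 4022 against 4262 and 2161 TPM (0.39) and Rps3a1 had 1714 and 2281 against 2458 and 4231 TPM (-0.71). Rack1, the scaffold protein of the small subunit, had 1222 and 1304 against 1583 and 925 TPM (0.06). None of these 3 was called. None of 5 tested paralogs was called either (median -0.35). Rpl22l1, which can replace Rpl22 in the ribosome, had 122 and 163 against 167 and 311 TPM (-0.69), and Rpl22 itself, named because its paralog is, had 367 and 447 against 377 and 564 TPM (-0.19). None of 77 tested mitochondrial ribosomal protein genes was called (median -0.10), nor any of 15 RNA polymerase I genes (median -0.14) or of 20 genes of mTORC1, LARP1 and MYC control (median 0.49, or 0.17 without control replicate 9).
Of 28 other genes with TOP mRNAs 1 rose and none fell, with a median of -0.53 and 20 negative (-0.21 without control replicate 9). The one that rose was the snoRNA host Snhg1, a known NMD target, with 107 and 282 against 46.8 and 84.5 TPM (1.45, limma adjusted p = 0.000964), a call lost without either cKO-labelled library or control replicate 8. Its fold change was 2.15 without cKO-labelled replicate 4, 0.76 without replicate 5 and 1.03 without control replicate 8. Snhg1 was called in 11 of 15 alternatives. The nucleolar chaperone gene Npm1 had 494 and 648 against 883 and 1532 TPM and did not pass (-1.04, limma adjusted p = 0.0639). Of 40 ribosome assembly genes 1 fell and none rose (median -0.23). It was Dkc1, the pseudouridine synthase of box H/ACA snoRNPs, with 31.0 and 37.6 against 58.4 and 112 TPM (-1.22, limma adjusted p = 0.0106), a call lost without either cKO-labelled library or control replicate 9. Its fold change was -1.09 and -1.36 without cKO-labelled replicate 4 and 5 and -0.75 without control replicate 9, and its adjusted p ranged from 0.00113 to 1 over 15 alternatives.
Of 35 tested proteasome subunits, another abundant housekeeping complex, 1 rose and none fell (median -0.31). It was the immunoproteasome gene Psmb10, which rose by 1.23 (limma adjusted p = 0.0116), a call lost without either cKO-labelled library, at fold changes of 1.29 without replicate 4 and 1.16 without replicate 5. It was at 0.78 without control replicate 9, where the call held, and it was called in 11 of 15 alternatives.

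**Figure D5:**
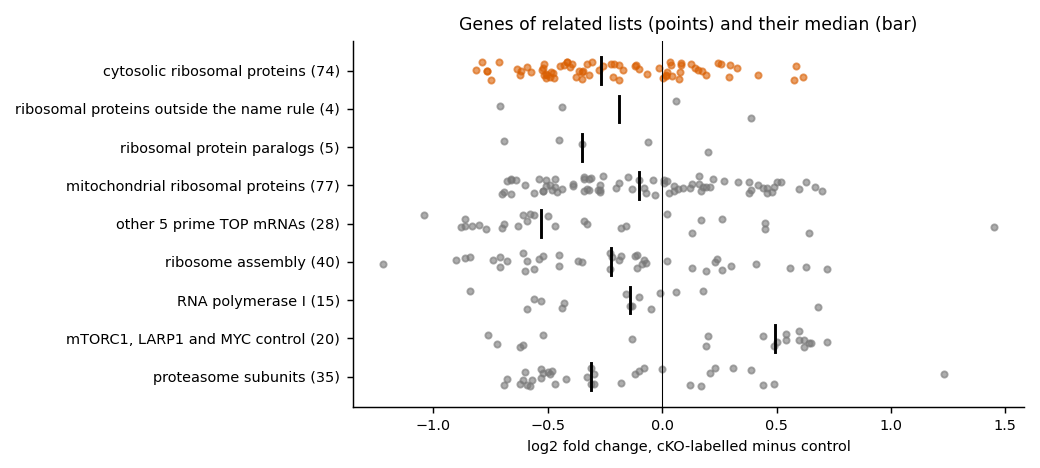
Log2 fold change, cKO-labelled minus control, of each tested gene (1 point per gene) in the 74 members and 8 companion lists, with the median of each list as a bar. The members span -0.81 to 0.62 with a median of -0.27, and the other lists have medians from -0.53 for other TOP mRNAs to 0.49 for mTORC1, LARP1 and MYC control.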

How the data were processed

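RNA was measured in 4 libraries, 2 per group. Total RNA was taken with TRIzol, treated with DNase and prepared with a TruSeq Stranded Total RNA kit, per the labels' protocols, and aligned with STAR to mm10, per the submitters' processing notes. No source used here names the counter, its strand setting or its annotation. The authors deposited TPM for 40630 genes, and each column sums to 1000000. TPM times the merged exon length of GENCODE M21 gave whole reads, within 0.05 reads, for 100.0% of values above 0, except for 349 genes without that length; the recovered depth comes from these reads.

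For 15107 genes, those whose mean TPM reached 1, log2(TPM + 1) was compared in limma 3.58.1 (R 4.3.3), a scale that understates the change of low genes, with an intensity trend, two-sided, and called at a Benjamini-Hochberg adjusted p under 0.05. In the fit of all libraries prior degrees of freedom came out infinite, so each gene's spread was the pooled trend. They were finite without control replicate 8 (7.22) or 9 (7.64) and with the GC trend removed (5.3 to 6.13). In those fits a gene's own spread also counted. Exact permutation tests used scipy 1.17.1 and figures matplotlib 3.10.9. Alternatives were pseudocounts of 0.5 and 0.1, no filter, a mean TPM of at least 5, 2 other scalings, no trend, a robust fit and leaving out each library; removal of a GC trend (lowess, span 0.3), alone or without control replicate 8 or 9, was added after seeing the data.

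The members and lists were chosen with earlier results of these data known. Named members are those called, the 6 highest and 4 lowest in mean TPM, the stalk, 5S particle, NMD and developmental-mutant genes, the 3 with the largest difference within each group, Rps6 and Rpl10. From each companion list up to 4 genes of smallest p were eligible. Members named in addition, among them Rpl17, Rps24, Rpl34 and Rpl22, were chosen after their values were seen. The rule also picks 2 genes that are not reported here by name.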

Additional observations from a re-analysis of the deposited data

How the results depend on the processing

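No paired analysis was possible because the groups share no replicate number. In 13 of 15 alternatives no member was called. The exceptions both left out control replicate 8, with 38 members called, and 17 when the GC trend was also removed, so leaving out 1 library gave 0 to 38. With a lone library in a group, that library is assumed to vary like the other group. The count over all genes, 1229, was 178 with no filter, 642 with a mean TPM of at least 5, and 2502 and 718 with the GC trend removed and control replicate 8 or 9 left out; leaving out 1 library gave 176 to 7379. The members' median fold change, -0.27, was -0.06 after median-of-ratios scaling, which moved the median of all genes from -0.16 to 0.02, and -0.40 to -0.17 when 1 library was left out. The difference in summed TPM changed sign under that scaling, to 0.597 on the rescaled level, while the shares of the library are not altered by it. Of the 27 named members, 15 turned sign without control replicate 9 and 15 passed the threshold without control replicate 8. Sign changes were not counted over all tested genes, and the cause of these shifts was not tested. Depth limits Rpl24, with 17 to 54 reads per library.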
